A study of Mus musculus with 4 samples.

Results

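The distal end of mouse chromosome X was taken as all 100 kb bins that start at 140 Mb or beyond in the mm10 build, leaving out any bin without data in 1 or more of the 4 deposited 100 kb matrices. This kept 276 of the 307 bins of the stretch, from position 140000001 to position 170000000, out of 1461 bins with data on the whole chromosome. At 250 kb, 111 of 123 bins were kept, out of 588. The cells were tail tip fibroblasts (TTF) of female mice whose 2 X chromosomes came from different subspecies, mus and cas, so that Hi-C reads could be assigned to one copy or the other. The groups were wild type (WT, 2 samples) and Sirt7-/- (KO, 2 samples). The 2 samples of each genotype had been combined into 1 matrix per copy before deposit, so no genotype difference below has a replicate check and none was tested. The labels do not say which copy was inactive, how many animals the cultures came from, or how reads were assigned to a copy, and the matrices hold no transcript levels against which the labelled cell type could be checked.

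SIRT7 is a nuclear sirtuin, an enzyme that uses NAD to remove acyl groups from histones and other proteins. In female mammals one X chromosome of each cell is coated by the Xist RNA and largely silenced. Hi-C maps of an active chromosome alternate between gene-rich A compartments and gene-poor B compartments, while the silenced X loses most of this alternation and folds into a pair of large domains that meet at the Dxz4 repeat. A few genes escape silencing, among them Kdm5c, which lies in the distal end and encodes a demethylase of histone H3 lysine 4. The distal end lies wholly on the telomeric side of Dxz4 and runs to the pseudoautosomal boundary, where Mid1 is the last gene with data.

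The distal end held 176 protein-coding genes of the RefSeq annotation of GRCm38.p6, which is the mm10 assembly, and 159 of them fell in bins with data. With 0.576 genes per bin it was as gene-dense as the rest of the chromosome, which had 0.575. Of the 276 bins, 117 held the midpoint of a gene and 159 did not. The bins without data fell into 5 stretches. The longest spanned 148.9 to 150.1 Mb, with Ott and 5 predicted genes, and 147.8 to 148.8 Mb, with another 5 predicted genes. The others were 170.0 to 170.7 Mb with Asmt, the bin of Atg4a at 141.0 Mb, and the bin at 154.9 Mb with Cldn34b1, Magea6, Magea3 and Magea8.

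The promoter sequences of 3 genes are shown because their bins lay at the ends of the range of compartment scores on cas, the measure described below. Kdm5c and Fgd1, which encodes an activator of the CDC42 GTPase, were in the 2 gene-holding bins with the highest WT score. Samt2, of a testis-specific X-linked cluster, was in the bin with the lowest score of the region. Each window runs from 250 bases before to 50 bases after a RefSeq transcription start, 300 bases in all, on the gene's own strand, and CG dinucleotides are in capitals. For Kdm5c and Fgd1 this start lies inside the annotated gene, which begins at 152233198 and 151046141. The Kdm5c window is chrX:152232977-152233276 on the plus strand, the Fgd1 window is chrX:151046920-151047219 on the plus strand, and the Samt2 window is chrX:154579281-154579580 on the minus strand.
Kdm5c: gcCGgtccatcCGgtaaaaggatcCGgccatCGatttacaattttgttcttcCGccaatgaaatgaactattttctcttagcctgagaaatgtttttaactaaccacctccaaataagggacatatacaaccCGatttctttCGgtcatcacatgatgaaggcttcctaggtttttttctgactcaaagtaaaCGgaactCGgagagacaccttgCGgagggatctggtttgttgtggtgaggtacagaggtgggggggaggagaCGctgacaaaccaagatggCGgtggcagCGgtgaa
Fgd1: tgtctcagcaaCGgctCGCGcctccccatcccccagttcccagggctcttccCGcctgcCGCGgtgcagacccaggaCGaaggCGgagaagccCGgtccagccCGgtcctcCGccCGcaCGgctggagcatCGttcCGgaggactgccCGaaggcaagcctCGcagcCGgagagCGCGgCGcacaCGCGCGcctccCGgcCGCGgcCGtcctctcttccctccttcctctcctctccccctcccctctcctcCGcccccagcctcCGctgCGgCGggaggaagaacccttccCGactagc
Samt2: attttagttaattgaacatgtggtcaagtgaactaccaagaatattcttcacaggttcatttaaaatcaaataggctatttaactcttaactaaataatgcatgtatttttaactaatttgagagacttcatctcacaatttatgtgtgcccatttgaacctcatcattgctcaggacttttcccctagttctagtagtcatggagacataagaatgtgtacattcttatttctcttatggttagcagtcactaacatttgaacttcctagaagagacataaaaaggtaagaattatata
The Kdm5c window held 13 CG and 47.0% G or C bases, the Fgd1 window 33 CG and 72.7%, and the Samt2 window 0 CG and 31.3%. Fgd1 shares its bin, and so its score, with Gnl3l and Tsr2, whose windows are not shown. The Tsr2 window held 13 CG and 50.0%. The motif searched was CG, which reads the same on both strands. At least 1 CG was present in 768 of the 817 promoter windows of chromosome X (94.0%) and in 141 of the 151 windows of the distal end (93.4%), so its absence placed Samt2 in a minority. Over the distal end the median was 14 CG for the 102 genes whose bin had a positive WT score on cas and 4 CG for the 34 genes whose bin had a negative one, against 8 over all 817 windows. These counts describe letters in the windows and say nothing about methylation or binding.

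Each deposited value says how alike the contacts of 2 bins are, as a correlation: a pair of bins that touches the same places across the chromosome scores high. Pairs closer than 2 Mb were left out. Read depth is unknown. As a stand-in, the mean correlation of adjacent 100 kb bins of the distal end on mus was 0.0454 (WT) and 0.0330 (KO). The rest of the chromosome had 0.0457 in WT and 0.0415 in KO. On cas it was 0.0778 in WT and 0.0913 in KO, against 0.0670 and 0.0671 in the rest. Adjacent bins of the distal end were thus lower in KO than in WT on mus and higher on cas, and the part of depth in the results below was not tested.

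The first comparison asked whether the distal end held together to the same degree in WT and KO. On mus the mean correlation over its 33118 bin pairs was 0.0255 in WT but 0.0119 in KO, which makes a KO to WT ratio of 0.467. Leaving out each of the 6 blocks of 5 Mb in turn moved the ratio between 0.440 and 0.506, a range that shows how far any block moves the value and is not a confidence interval. On cas the means were 0.00900 and 0.00848, a ratio of 0.942. At 250 kb the ratio was 0.613 on mus, from a WT mean of 0.0873 and a KO mean of 0.0535, and 1.06 on cas, from 0.0475 and 0.0503. After each matrix was divided by its mean adjacent-bin correlation over the chromosome, the mus ratio at 100 kb was 0.535. This division is not a correction for depth. The lower KO level on mus was therefore present at both bin sizes, while the small cas difference turned its direction with bin size.

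The share of pairs above 0 moved in the same way. On mus 80.6% of pairs were positive in WT and 65.8% in KO. On cas the shares were 57.0% and 56.2%. The SD of the entries within the region differed little on mus, at 0.0294 in WT and 0.0282 in KO, so the lower mean came with a similar spread. On cas the SD was 0.0467 in WT and 0.0506 in KO.

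**Figure D1:**
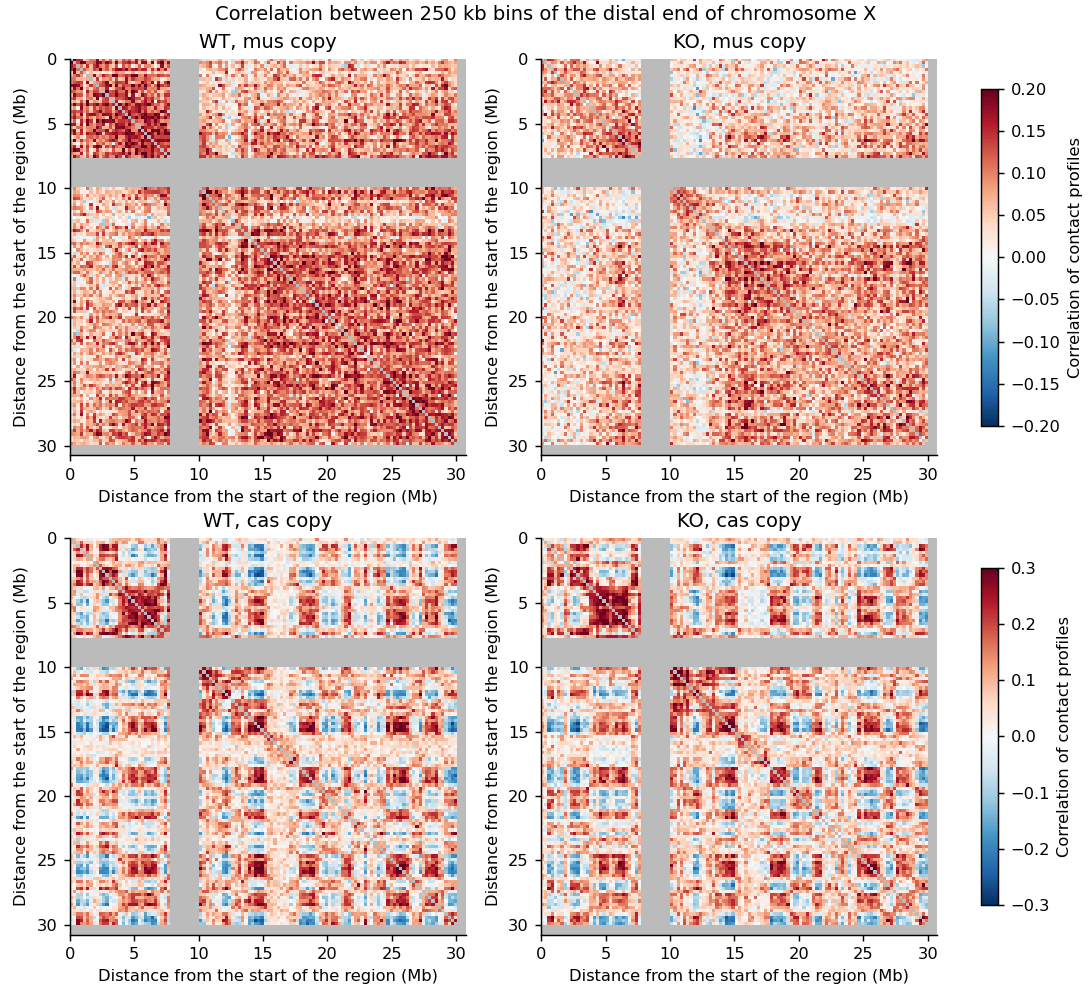
Correlation of contact profiles between 250 kb bins of the distal end, with distance from the start of the region in Mb on both axes, WT on the left, KO on the right, mus above (colour scale to 0.20 either way) and cas below (to 0.30 either way). Grey marks bins without data and bins against themselves. On mus nearly the whole WT square is positive (95.5% of pairs at least 2 Mb apart) and the KO square is paler (85.6%), while on cas a checkerboard of positive and negative squares stands in both genotypes.

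The difference on mus was found at every distance. For pairs 2 to 5 Mb apart the mean was 0.0327 in WT and 0.0183 in KO. For pairs 5 to 10 Mb apart it was 0.0243 and 0.0105, and for pairs 10 to 20 Mb apart 0.0236 and 0.0105. For pairs 20 to 31 Mb apart, from opposite ends of the region, it was 0.0230 and 0.00989. The ratio of KO to WT was 0.559 in the nearest class and between 0.430 and 0.443 in the other 3. WT pairs on mus kept about the same level from 5 Mb out to the full length of the region, and so did KO pairs, at a lower level.

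Divided into 6 blocks of 5 Mb, the distal end gives 21 block pairs, each block with itself included. On mus all 21 were lower in KO at both bin sizes, by differences from -0.0185 to -0.00872 at 100 kb. Block pairs elsewhere on the chromosome were not counted, and the other stretches also had lower mus means in KO at 100 kb, as given below. On cas 12 of 21 were lower at 100 kb and 7 of 21 at 250 kb. The mean correlation of a block with the rest of the region on mus was highest for the block next to the telomere, 165 to 170 Mb, at 0.0281 in WT and 0.0139 in KO. It was lowest in both genotypes for the block next to the edge, 140 to 145 Mb, at 0.0197 and 0.00693. The block at 150 to 155 Mb, which holds the Huwe1 to Kdm5c genes and the Samt cluster, was next lowest, at 0.0239 and 0.00969. The order at these ends of the range was thus shared by WT and KO.

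Other stretches of chromosome X served as a yardstick. With pairs 2 to 30 Mb apart, the KO to WT ratio on mus was 0.787 for 0 to 40 Mb, 0.721 for 40 Mb to Dxz4, 0.863 for Dxz4 to 110 Mb and 0.936 for 110 to 140 Mb, against 0.467 for the distal end. At 250 kb the 4 other ratios lay between 0.859 and 1.01, against 0.613. The adjacent-bin correlation also had its lowest KO to WT ratio in the distal end, 0.727, with 0.795 to 1.09 in the other 4 stretches. When a window of 30 Mb was moved along the chromosome in steps of 1 Mb, the window that is the distal end had the lowest of 141 differences on mus at 100 kb, -0.0136, where the median window had -0.00390. The lowest of the 111 windows that do not overlap it had -0.00941. At 250 kb it ranked second of 141, at -0.0338, behind the overlapping window that starts at 138 Mb, at -0.0341. On cas it ranked 82nd of 141 at 100 kb and 102nd at 250 kb, counted from the lowest. These ranks are a description, since windows overlap and each genotype has 1 matrix per copy.

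**Figure D2:**
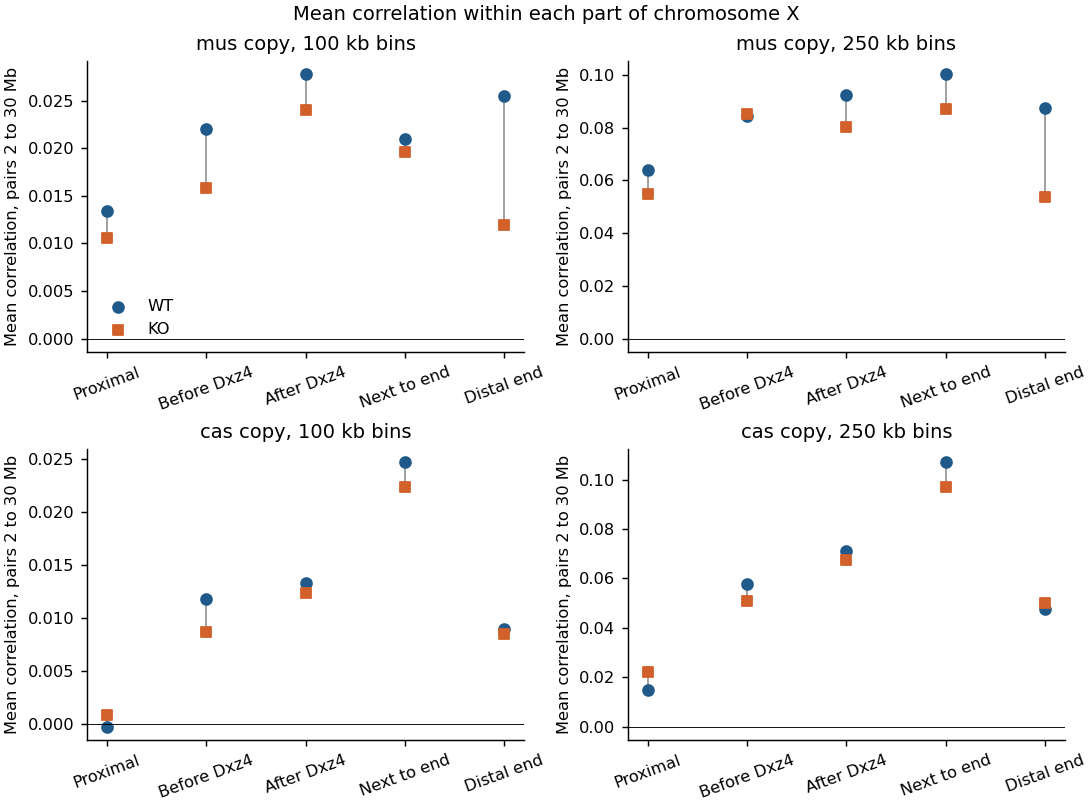
Mean correlation of pairs 2 to 30 Mb apart within each of 5 stretches of chromosome X (horizontal axis), for mus and cas and both bin sizes. Blue circles are WT, orange squares KO, each from 1 combined matrix, and a grey line joins the genotypes. On mus the distal end has the longest line in both panels, from 0.0255 to 0.0119 at 100 kb and from 0.0873 to 0.0535 at 250 kb.

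Each bin was then described by its surrounding correlation, the mean of its correlations with bins 2 to 10 Mb away, wherever on the chromosome these lie. On mus it was lower in KO in 268 of the 276 bins (97.1%), against 75.1% of all 1461 bins. On cas it was lower in 127 bins (46.0%), against 57.7%. At 250 kb the mus count was 108 of 111 (97.3%, against 75.5%) and the cas count 42 of 111 (37.8%, against 56.6%). The median bin of the region on mus had 0.0281 in WT and 0.0135 in KO, while the medians in the rest of the chromosome were 0.0213 and 0.0178. In WT the distal end therefore lay above the rest and in KO below it.

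The bins around Kdm5c stood low within the region on mus in both genotypes. In WT the 3 lowest bins were 141.1 Mb, with no gene, at 0.00470, 152.5 Mb, with the claudin-family gene Cldn34a, at 0.00475, and 152.3 Mb, with Tspyl2 and Gpr173, at 0.00668. In KO the lowest bin was that of Kdm5c, at -0.00398, where WT had 0.00830, and it was the 1 bin of the region below 0. Averaged by Mb, the stretch from 152 to 153 Mb had 0.0152 in WT and 0.00621 in KO. From 151 to 152 Mb, with Huwe1 (a ubiquitin ligase) and neighbouring housekeeping genes, the means were 0.0215 and 0.00584. The Mb to the left had 0.0304 and 0.0118, and that to the right 0.0278 and 0.0129, so a dip at 151 to 153 Mb was present in WT and KO. At the other end of the range was Gpm6b, a neuronal membrane glycoprotein gene, with 0.0453 in WT and 0.0270 in KO. Kctd12b had the highest WT value, 0.0465, and 0.0118 in KO. The bins in this paragraph were picked for their extreme values.

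On cas the low and high places were different. The lowest bin in WT, at -0.0193, was that of Hsd17b10, Ribc1 and Smc1a (a cohesin subunit), with -0.00571 in KO. The lowest in KO, at -0.0193, was that of Vsig1 and Psmd10 at 140.9 Mb, with -0.00861 in WT. The highest bins of either genotype lay at 144.3 to 144.5 Mb, 146.9 to 147.7 Mb and at Kctd12b, up to 0.0345 in both. On cas 37 of the 276 bins were below 0 in WT and 45 in KO, against 0 and 1 on mus. Of the 1185 bins in the rest of the chromosome, 254 and 258 were below 0 on cas and 9 and 19 on mus.

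**Figure D3:**
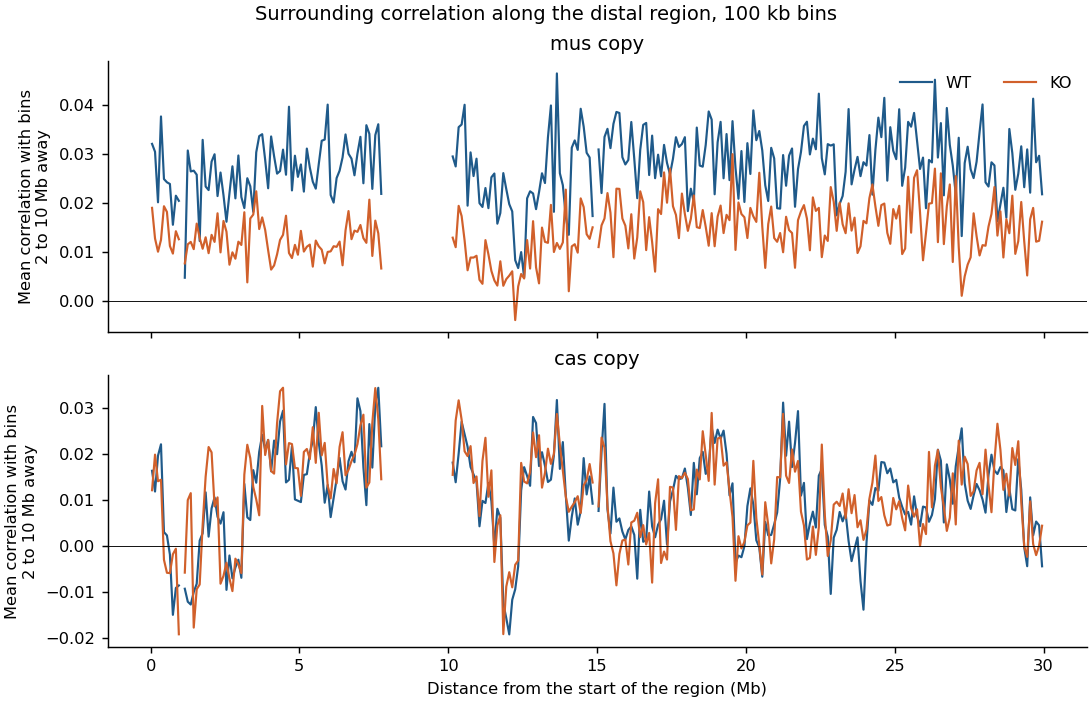
Surrounding correlation of each 100 kb bin (vertical axis, mean correlation with bins 2 to 10 Mb away) by distance from the start of the region in Mb, mus above and cas below, WT in blue and KO in orange. On mus the KO line runs below the WT line in 268 of 276 bins, with a dip in both near 12 Mb at Kdm5c, and on cas the lines cross repeatedly, with KO lower in 127 bins.

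The second comparison concerned the correlation of the distal end with the rest of the chromosome. The WT profile on mus was uneven and the KO profile flatter. The neighbouring 10 Mb, 130 to 140 Mb, had a mean correlation with the distal end of 0.0186 in WT and 0.00830 in KO, and 120 to 130 Mb had 0.0121 and 0.00692. Farther left, WT values were negative in the 4 blocks from 70 to 110 Mb, which had, from right to left, -0.00497, -0.00759, -0.00478 and -0.00310. The KO values for the same 4 blocks were positive, at 0.00238, 0.00100, 0.00203 and 0.00320. At 250 kb the same blocks were again among the lowest in WT, but 90 to 100 Mb alone was negative, at 0.00532, -0.00929, 0.00189 and 0.0147 in that order. The KO values there were 0.0233, 0.0109, 0.00566 and 0.0106, so the block at 70 to 80 Mb was lower in KO at 250 kb. Beyond them the block at 60 to 70 Mb was positive in both, at 0.0132 in WT and 0.0109 in KO, and so was the block at the far end, 0 to 10 Mb, at 0.0123 and 0.00928.

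In larger pieces, the stretch from Dxz4 to 110 Mb had a mean of -0.00657 in WT and 0.00143 in KO with the distal end on mus, and the stretch from 110 to 140 Mb had 0.0120 and 0.00684. At 250 kb these were -0.00467 and 0.00887, and 0.0432 and 0.0286, so both kept their direction. The 2 stretches left of Dxz4 did not: 40 Mb to Dxz4 had 0.00619 in WT and 0.00866 in KO at 100 kb but 0.0584 and 0.0455 at 250 kb. Averaged over all the rest, the mus mean was accordingly higher in KO at 100 kb, 0.00607 against 0.00406, and lower at 250 kb, 0.0301 against 0.0345, and no direction is given for it. On cas the mean with the rest was -0.000629 in WT and -0.000847 in KO.

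**Figure D4:**
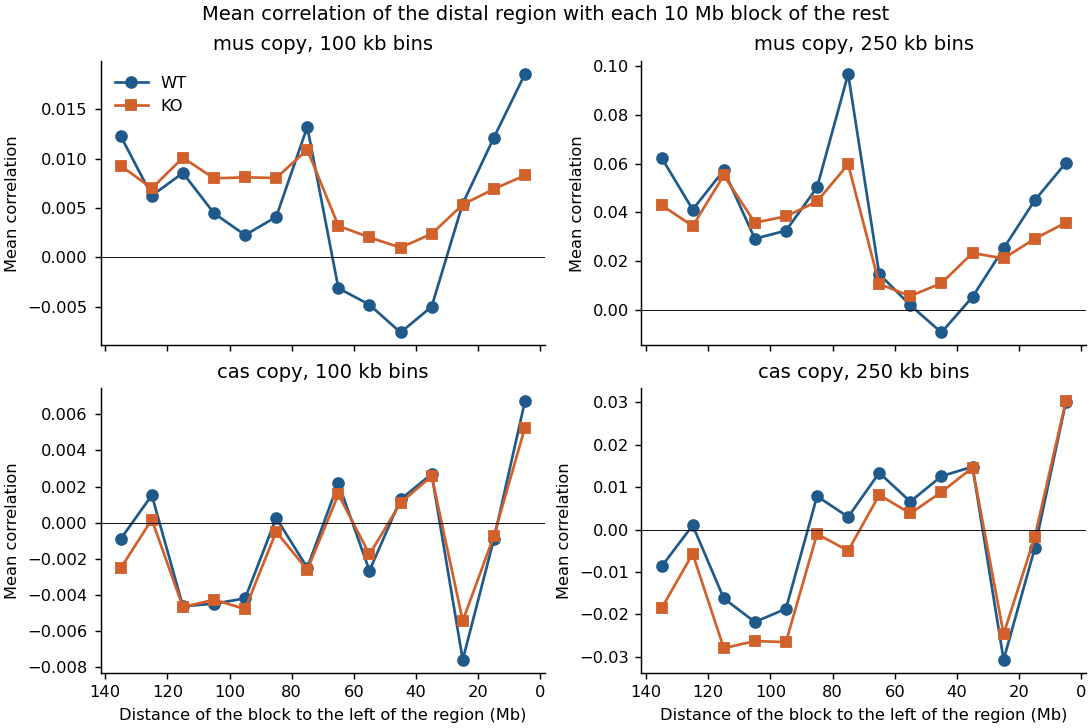
Mean correlation of the distal end with each 10 Mb block of the rest of chromosome X, by the distance of the block to the left of the region in Mb, for mus and cas and both bin sizes, WT as blue circles and KO as orange squares. On mus at 100 kb the WT line starts at 0.0186 next to the region, goes below 0 for 4 blocks to -0.00759 and rises again, while the KO line stays between 0.00100 and 0.0109.

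The edge at 140 Mb itself was described separately. The edge contrast sets pairs that lie together to the left or right of 140 Mb against pairs that straddle it (the first mean minus the second), at 2 to 30 Mb and within 30 Mb of the edge. On mus it was 0.00254 in WT and 0.00266 in KO, and on cas 0.00916 and 0.00903. On mus pairs on the same side had 0.0192 in WT and 0.0120 in KO, and pairs across had 0.0167 and 0.00938, so both were lower in KO by similar amounts. The KO minus WT difference in the contrast depended on single blocks: it was 0.00619 on mus and 0.00224 on cas without 140 to 145 Mb, and over all 6 left-out blocks it ranged from 0.000272 to 0.00619 on mus and from -0.00104 to 0.00224 on cas.

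The third comparison was of compartments. The score was a bin's average correlation with class A bins minus that with class B bins, each class being 20% of all bins, taken from the gene-rich (A) and the gene-poor (B) end of the leading principal component of the cas matrices, averaged over genotypes. Since cas chose the classes, the cas scores are descriptive, and part of their larger size and closer match between genotypes is built in. The mus scores use the cas classes, so they cannot show whether mus has compartments of its own. The distal end held 90 A bins and 3 B bins, 32.6% and 1.09% of its bins, against 17.1% and 24.5% of the rest. In WT on cas 57.6% of its bins had a positive score, against 30.2% in the rest. Gene-holding bins had a median WT score of 0.0391 on cas and gene-free bins -0.00670, and 84 of 117 and 75 of 159 were positive.

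On cas the pattern of alternation was nearly the same in both genotypes. The scores of the region's bins correlated at 0.950 between WT and KO (Pearson, 276 bins of the same pair of matrices), and 14 bins changed sign (5.07%, against 6.09% of all bins). On mus the score correlation was 0.256 at 100 kb and 0.592 at 250 kb, below the 0.453 of the rest at the first bin size and above its 0.460 at the second. On mus 117 bins changed sign (42.4%, against 34.4%), a share that was 19.9% after the mean of each distance was subtracted. With A and B bins left of 140 Mb alone it was 32.2%. The share over all bins was not computed under these alternatives, so neither can be set against 34.4%. At 250 kb 9 of 111 bins changed sign on cas (8.11%, against 6.29%) and 39 on mus (35.1%, against 36.2%). Against the cas-chosen classes the mus scores were close to 0 in the first place. Their median size was 0.00253 in WT and 0.00262 in KO. On cas it was 0.0521 and 0.0466. On mus 159 bins had a lower score in KO at 100 kb (57.6%, against 50.2%), but 25 of 111 did at 250 kb (22.5%, against 45.9%), so no direction held. On cas the score was lower in KO in 144 bins (52.2%, against 41.0%) and in 57 of 111 at 250 kb (51.4%, against 38.9%). The similarity of the matrices themselves, the Pearson correlation of WT and KO entries within the region, was 0.0700 on mus and 0.577 on cas. In the rest of the chromosome it was 0.219 and 0.553. At 250 kb the values within the region were 0.264 and 0.805, against 0.571 and 0.863 in the rest. On cas the region thus lay above the rest at 100 kb and below it at 250 kb. The mus and cas matrices of one genotype had little in common within the region, at 0.0328 in WT and 0.0365 in KO.

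Contrasts between classes within the distal end rest on its 3 B bins. The A/B contrast, pairs within a class minus pairs between classes, was 0.109 in WT and 0.122 in KO on cas, and -0.00314 and 0.00193 on mus. With every bin assigned to A or B by its side of the median of the principal component, the contrast was 0.0262 and 0.0271 on cas and -0.000700 and 0.000332 on mus. At 250 kb this contrast turned on cas, to 0.0822 in WT and 0.0705 in KO, and was -0.00396 and -0.00311 on mus. The gene contrast, pairs of gene-holding or of gene-free bins minus mixed pairs, was 0.00386 in WT and 0.00459 in KO on cas and 0.000198 and 0.00101 on mus. The cas gene contrast turned its direction at 250 kb, where it was 0.0158 (WT) and 0.0120 (KO).

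Along the region at 250 kb, the cas score formed 13 stretches that were positive in both genotypes (57 bins, 101 genes) and 12 that were negative in both (45 bins, 51 genes), passing over bins without data. In 9 bins with 11 genes the sign differed. Gene names in this paragraph and the next follow the stretches. The stretch at 142.0 to 143.75 Mb, with Acsl4, a fatty acid ligase, had a mean score of 0.272 in WT and 0.236 in KO. That at 151.0 to 152.5 Mb, with Fgd1, Huwe1, Smc1a and Kdm5c among its 15 genes, had 0.259 and 0.226. The stretch at 159.25 to 161.0 Mb, with Rps6ka3, a kinase, and Pdha1, a pyruvate dehydrogenase subunit, had 0.222 and 0.231, and the last, at 168.75 to 170.0 Mb with Hccs and Mid1, 0.246 and 0.224. All 4 stayed well above 0 in KO.

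Among the negative stretches, 153.75 to 155.25 Mb had the most negative mean, -0.296 in WT and -0.220 in KO. It holds 22 genes, most of them of the testis-specific Samt and Magea clusters, so that here a gene-dense stretch lay on the B side. The stretch at 144.5 to 146.75 Mb, with the calcium channel gene Trpc5 and Amot, had -0.226 and -0.174. That at 157.75 to 159.25 Mb, with the neuronal scaffold gene Cnksr2, had -0.233 and -0.217, and that at 164.5 to 166.25 Mb, with the glycine receptor gene Glra2, had -0.249 and -0.217. In these 4 stretches the KO score was closer to 0 than the WT score, as in 8 of the 12 negative stretches, while in the other 4 it was farther from 0. The positive stretches were closer to 0 in KO in 9 of 13. In the rest of the chromosome the median size of the cas score at 250 kb was also lower in KO, 0.271 against 0.301. Such stretches were not counted there. A pale band on the cas map, 155.25 to 157.75 Mb, had low scores in both genotypes, at 0.0836 and 0.0728 in its first stretch and 0.102 and 0.119 in its last. Between them, 155.75 to 156.25 Mb had -0.00265 in WT and 0.0492 in KO, so the sign of the mean differed there.

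**Figure D5:**
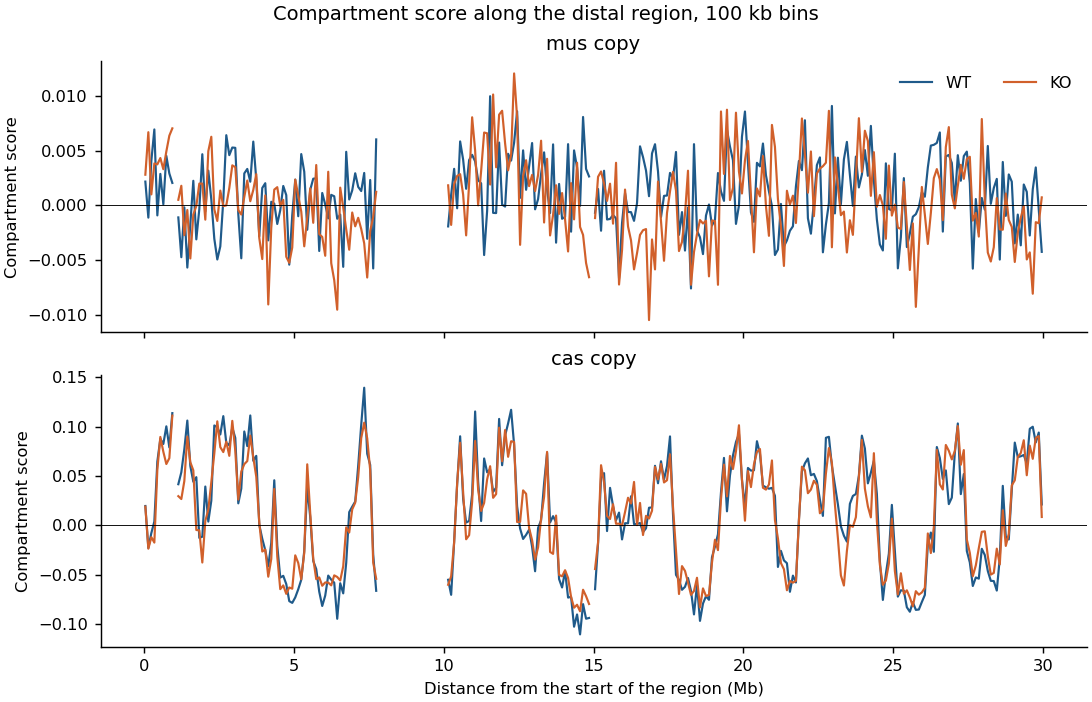
Compartment score of each 100 kb bin by distance from the start of the region in Mb, mus above and cas below on different vertical scales, WT in blue and KO in orange. The classes behind the score were chosen on cas for both copies. On cas the lines follow each other (Pearson 0.950) between about 0.14 and -0.11, and on mus they move around 0 with a Pearson correlation of 0.256 (0.592 at 250 kb).

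Local boundaries were described by a boundary score, which subtracts the mean correlation across a bin from that within the 1 Mb stretches flanking it, in 257 bins of the region. On cas its median was 0.0268 in WT and 0.0307 in KO, above the 0.0102 and 0.0127 of the rest. On mus the medians were 0.00335 and 0.00348, against 0.00348 and 0.00405. The highest score of the whole chromosome in KO on cas was at 155.1 Mb, in the bin of Cldn34b2, at 0.134, where WT had 0.0850, the 99.1st percentile. It marks the passage from the Samt and Magea stretch to the bin of Sat1 and Acot9. In WT the region's highest was at 157.6 Mb, next to the muscle gene Smpx, at 0.0949, and the Smpx bin itself had 0.0940 in WT and 0.111 in KO. The Cldn34b2 bin on mus had 0.0139 in WT and 0.00104 in KO.

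Gene lists were placed on the bins by gene midpoint, and a bin that holds a pair of listed genes counts once. All lists shared the lower surrounding correlation in KO on mus, at about the region's own share of 97.1%. It was lower in 3 of 3 bins of escape genes, 16 of 17 bins of housekeeping and disease genes, 13 of 13 bins of matrix, adhesion and cytoskeleton genes and 13 of 13 bins of neuronal genes. It was lower in 6 of 7 bins of immune and kidney genes and 12 of 12 bins of the testis clusters, 4 of whose 20 genes lay in bins without data. The exceptions were Sms, the spermine synthase gene of the housekeeping list, with 0.0259 in WT and 0.0270 in KO, and Bmx, a tyrosine kinase gene, with 0.0217 in WT and 0.0238 in KO. The list medians were alike as well: 0.0266 in WT and 0.0122 in KO for the housekeeping list, 0.0258 and 0.0124 for the matrix list, 0.0288 and 0.0145 for the neuronal list and 0.0229 and 0.0105 for the testis clusters. Differences between lists were not tested.

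On cas the lists differed in where they lay. The WT score was positive in 17 of 17 housekeeping bins, 12 of 13 matrix bins and 7 of 7 immune and kidney bins, in 8 of 13 neuronal bins and in 2 of 12 testis bins. It was positive in 57.6% of the region's bins, in 84 of its 117 gene-holding bins and in 30.2% of the rest. The neuronal count was thus near the region's own share. The median WT score was 0.0714 for housekeeping, 0.0603 for matrix, 0.00450 for neuronal genes and -0.0503 for the testis clusters, and the KO medians were 0.0720, 0.0595, 0.000313 and -0.0447. The KO minus WT score on cas was lower than 0 in 11 of 17 housekeeping bins (median -0.00429), 5 of 13 matrix bins (0.00375), 5 of 13 neuronal bins (0.00337), 3 of 7 immune and kidney bins (6.29e-05) and 1 of 12 testis bins (0.0108). It was lower in 52.2% of the region's bins and 41.0% of all bins. The medians over the region and over all 1461 bins were -0.00118 and 0.00425.

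The 3 genes known to escape silencing in mouse cells lay on the A side of cas in both genotypes, and all 3 had a lower cas score in KO. Kdm5c had 0.117 in WT and 0.0853 in KO. The bin of Car5b, a mitochondrial carbonic anhydrase gene, and Siah1b had 0.0779 and 0.0373. Mid1, a microtubule-associated ubiquitin ligase gene, had 0.0940 and 0.0905. The 3 differences had the same sign at 250 kb. With 3 bins, and 52.2% of the region's bins lower on cas, this is a description. On mus, the Kdm5c score was 0.00409 in WT and 0.00465 in KO, and the Car5b score 0.00505 and 0.00682. Mid1 went the other way on mus, with -0.000326 in WT and -0.00163 in KO.

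Among housekeeping and disease genes, the largest cas decreases were at Rbbp7, a histone-binding subunit of chromatin complexes, from 0.0888 in WT to 0.0526 in KO, and at the bin of Gnl3l, Fgd1 and Tsr2, from 0.115 to 0.0856. The largest increases were at Prps2, a nucleotide synthesis enzyme gene that shares its bin with Tlr7, from 0.0521 to 0.0763, and at Hccs, the holocytochrome c synthase gene, from 0.0714 to 0.0863. All these bins stayed on the A side. Among the matrix, adhesion and cytoskeleton genes, Arhgap6, a GTPase-activating protein gene, had 0.0839 in WT and 0.0458 in KO, and the collagen gene Col4a6 had 0.0771 and 0.0450. The actin-sequestering thymosin gene Tmsb4x, in a bin with Tlr8, had 0.0317 and 0.0615. Shroom2, an actin-binding protein gene, went from the B side, -0.0136, to the A side, 0.0355. Its neighbour Gpr143, a pigment cell receptor gene, did the same, from -0.00950 to 0.0321, although its 250 kb bin was on the B side in both genotypes.

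Of the neuronal genes, Irs4, an insulin receptor substrate gene, had the largest cas decrease of any named bin, from 0.0489 in WT to -0.00459 in KO. The sign change was not seen at 250 kb. The 250 kb bin at the midpoint of this bin was on the B side in both genotypes, at -0.0209 and -0.109. Irs4 itself falls in the 250 kb stretch from 140.25 to 141.75 Mb, on the A side in both. Iqsec2, a synaptic exchange factor gene, had 0.103 and 0.0695. Gpm6b had -0.0266 and -0.00185, and Cnksr2 had -0.0651 and -0.0411, a difference of the opposite sign at 250 kb. Of the immune and kidney genes, Bmx had 0.0534 and 0.00822. Bmx lies close to Car5b, and their bins are not separate observations, nor are the adjacent bins of Tlr7 and Tlr8. Of the testis genes, Samt2 had -0.110 in WT and -0.0869 in KO and Samt2b -0.102 and -0.0833. Cypt3 had 0.00308 and -0.0268, the 1 bin of that list that was lower in KO. Scml2, a polycomb-group gene of the germ line, had -0.0420 and -0.0131, which also had the opposite sign at 250 kb.

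On mus the named differences in score were small beside the typical cas score. The lowest that kept their sign at 250 kb were in the Samt stretch, at Gm15142, with 0.00807 in WT and -0.00270 in KO, and in the bin of Samt1d, with 0.00559 and -0.00422. Gemin8, an SMN complex gene, followed with 0.00346 and -0.00353. The highest were at Txlng and Syap1, with 0.000201 and 0.00864, at Gja6, a connexin gene, with -6.55e-05 and 0.00735, and at Fam120c, with -0.000514 and 0.00658. In WT on cas the 3 lowest bins lay on the B side and the 3 highest on the A side.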

How the data were processed

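Hi-C was made from tail tip fibroblasts after formaldehyde fixation and HindIII digestion, per the labels' protocols. Only the series' design text speaks of Xist binding, and the samples were treated as Hi-C, as their labels and headers have them. The 8 deposited matrices hold a score, the correlation coefficient between contact profiles, and the authors had combined replicates and split reads by copy, per the file headers. The tools HOMER, Juicer, Bowtie2 and cutadapt and the build mm10 are listed in the submitters' processing notes. Not given in the sources used here were versions, contact normalization, the rule for assigning reads to copies and read numbers. Noise from few reads lowers correlations, more so in smaller bins.

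Values were computed with Python 3.11.15, numpy 2.4.6 and pandas 2.3.3, and plotted with matplotlib 3.10.9, from 100 kb bins, leaving out pairs closer than 2 Mb, with 250 kb as a check. The functions were tested on simulated data. Genes and promoters are from RefSeq (GRCm38.p6), placed by midpoint. With 1 matrix per genotype and copy, no p-value, standard error or interval between genotypes was computed. Correlations across bins share matrix and depth and are descriptions.

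Named genes are, per list, the 2 highest and 2 lowest bins by KO minus WT cas score; per copy, the 3 highest and 3 lowest bins with genes that kept the sign of their difference at 250 kb; and the bins of the 2 highest and 2 lowest WT cas scores. One bin chosen in this way is not reported here. Others were chosen after their values were seen. The region and the lists were chosen with earlier results of these data known. The surrounding correlation, the KO to WT ratio, the window ranks, the stretches and extremes, the division by the adjacent-bin correlation and the use of A and B bins left of 140 Mb alone were added after seeing the data. Alternatives tried were 250 kb bins, pairs from 5 Mb on, scaling by the SD, removal of the mean at each distance, omission of the 10% weakest bins, of the last Mb and of each 5 Mb block, a split at the median of the principal component, and rank correlation.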

Additional observations from a re-analysis of the deposited data

Results flagged for a closer look

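For 2 measures the KO minus WT difference had opposite signs on the 2 copies, and the difference between the copies was not tested. The mean correlation of the distal end with the rest of the chromosome differed by 0.00201 on mus and by -0.000218 on cas, which are 0.00223 apart. Its sign on mus turned at 250 kb. The edge contrast at 140 Mb differed by 0.000128 on mus and by -0.000136 on cas, which are 0.000264 apart, where the contrast itself was 0.00254 on mus and 0.00916 on cas in WT. Leaving out 140 to 145 Mb brought the mus difference to 0.00619, above the WT contrast.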

How the results depend on the processing

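Values here are KO minus WT unless stated, and an alternative counts as unchanged where it kept the sign and lay within 1.5 times the reported value, a limit set after the values were seen. Of 116 values over 18 results, not counting the left-out blocks given as ranges at the end, 84 were unchanged, 21 moved and 11 turned sign. The lower mus mean within the region kept its direction under every alternative run, with -0.0338 at 250 kb, and its ratio stayed within 1.5 times of 0.467. At 250 kb the mus mean with the rest turned to -0.00436 and the mus edge contrast to -0.00221. On cas at 250 kb the mean within the region turned to 0.00277 (ratio 1.06), the gene contrast turned to -0.00380, the mean with the rest was -0.00385 and the edge contrast -0.00391. Also at 250 kb the mus gene contrast was 0.00240, the mus similarity 0.264 and the cas share of sign changes 8.11%. With a minimum distance of 5 Mb the edge contrast was 4.52e-06 on mus and -8.94e-05 on cas, and the cas mean within the region -0.000973. Division by the SD gave edge contrasts of 0.000264 on mus and 0.000458 on cas, a cas mean within the region of 3.30e-05 (ratio 1.00) and a cas A/B contrast of 0.0211. After subtraction of the mean of each distance the mean with the rest was 0.000234 on mus and 0.000392 on cas, the cas mean within the region 0.00111 and the mus share of sign changes 19.9%. Division by the adjacent-bin correlation gave a cas mean within the region of -0.000840. Without the weakest bins the edge contrast was 0.000388 on mus and -0.000695 on cas and the cas gene contrast 0.000302. Without the last Mb with data these were 0.00132, 0.000251 and 0.000410. With a split at the median of the principal component the A/B contrast was 0.00103 on mus and 0.000917 on cas. The cause of these changes was not tested.

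Leaving out each 5 Mb block gave, on mus, -0.0141 to -0.0132 for the mean within the region, 0.00195 to 0.00208 for that with the rest, 0.000272 to 0.00619 for the edge contrast, 0.00209 to 0.00982 for the A/B contrast, 0.000525 to 0.00131 for the gene contrast, 36.3% to 42.0% for sign changes, 0.0499 to 0.0819 for similarity and 95.1% to 97.8% for the share of bins with a lower surrounding correlation. On cas these were -0.000841 to -0.000150, -0.000685 to 9.33e-05, -0.00104 to 0.00224, 0.01003 to 0.0143, 4.98e-06 to 0.00159, 3.51% to 7.08%, 0.554 to 0.613 and 42.9% to 50.9%, with the cas mean with the rest turning sign without 145 to 150, 155 to 160 or 165 to 170 Mb and the cas edge contrast without 140 to 145 or 165 to 170 Mb. No paired analysis was possible because the replicates of each genotype were combined in 1 matrix per copy. The A/B contrast between the outer classes was not run at 250 kb, where the region holds 0 B bins, nor without 150 to 155 Mb, which left 1 B bin, and the ratio was not run after subtraction of distance means, which lie around 0. Read depth is unknown, so what it limits could not be measured.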
